A study of Mus musculus with 6 samples.

Results

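Genes that drive and carry out the cell cycle were compared between the epithelium of the fetal mouse small intestine and the mesenchyme beneath it. The set holds 44 genes named by function: 8 cyclins, 4 cyclin-dependent kinases, 12 replication genes, 2 transcription factors, 15 genes of mitosis and 3 inhibitors of cyclin-dependent kinases. The rule used symbols and not measured values. All probe sets whose platform symbol equalled a member were taken, which gave 102 of 45037 probe sets and 43 of the 44 genes, among 18161 genes in all. Ccnb1 was not analysed here. Each of the 6 arrays carried RNA pooled from 3 embryos of C57BL/6 mothers at E18.5, near term, with 3 arrays for epithelium (A, B and C) and 3 for mesenchyme (A, B and C). Neither group carried a named allele, and both went through the same incubation of 9 hours at 4 °C that loosens the epithelium. The epithelium was shaken off the whole small intestine, and the mesenchyme is the gut wall that was left. The 3 pools per tissue were picked from 6 for purity by RT-PCR, so the spread between them may differ from that of unselected pools.

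A cell enters the cycle when D cyclins with Cdk4 or Cdk6, and then E cyclins with Cdk2, release E2F factors from the retinoblastoma proteins. E2F factors switch on genes for copying DNA, and later B-Myb and Foxm1 switch on those for mitosis, while p21, p27 and the Ink4 proteins hold the kinases back. In the late fetal small intestine, dividing epithelial cells are found mainly between the villi, the cells covering the villi have left the cycle, and the surrounding muscle and connective tissue is still growing.

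Values are log2 expression values, and a difference is epithelium minus mesenchyme on that scale, so that a negative difference means less signal in the epithelium. A gene is represented by its brightest probe set, its level in a tissue is given as mean ± SD (n = 3 arrays), and a difference ± its standard error from limma. A gene was called at a Benjamini-Hochberg adjusted p under 0.05 over all genes together with at least a 2-fold difference. The median of the arrays ran from 8.1 to 8.7, and the median difference over all genes was -0.17. The marker genes followed the labels. All 7 epithelial markers were higher in the epithelium, and all 6 smooth muscle, 6 fibroblast and 6 endothelial markers were higher in the mesenchyme. The summed smooth muscle signal was 10.4 to 11.0 (log2) in the epithelial arrays and 16.5 to 16.6 in the mesenchymal ones, the fibroblast signal 10.4 to 10.7 and 16.4 to 16.5, and the endothelial signal 10.5 to 10.8 and 14.1 to 14.4. Of 4 measured neural markers 2 were called higher in the mesenchyme (10.7 to 11.0 against 12.6 to 12.8), of 5 immune markers 4 (13.5 to 13.9 against 14.1 to 14.2, a sum that Csf1r carries at 13.57 against 13.17, while the called ones differed by -4.80 to -1.43) and of 5 erythroid markers 1 (10.1 to 10.6 against 10.8 to 11.1). These cell types move with the tissue by design, and their part in the cell cycle differences was not tested. The 3' and 5' control probe sets differed by -0.1 to 0.2 for Gapdh and 0.2 to 0.4 for beta-actin over the 6 arrays.

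Each of the 6 groups of cell cycle genes had members called lower in the epithelium. Of 43 members, 42 had a negative difference, as had 10971 of all 18161 genes tested. Of the members, 24 were called lower in the epithelium (55.8%), against 15.9% of all genes tested. A further 12 members passed the adjusted p without reaching 2-fold, so that 36 (83.7%) passed on the p alone, against 29.5% of all genes. The exception was Cdkn1a, which encodes the inhibitor p21 and was the 1 member called higher in the epithelium, where 8.2% of all genes were. The median difference over the members was -1.03, which is 48.9% of the mesenchymal level on the linear scale, and 14.8% of all genes had a lower difference than that. In 34 members all 3 epithelial arrays lay below all 3 mesenchymal arrays, against 30.5% of all genes. In bulk tissue, fewer cycling cells and less RNA per cycling cell cannot be told apart.

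**Figure D1:**
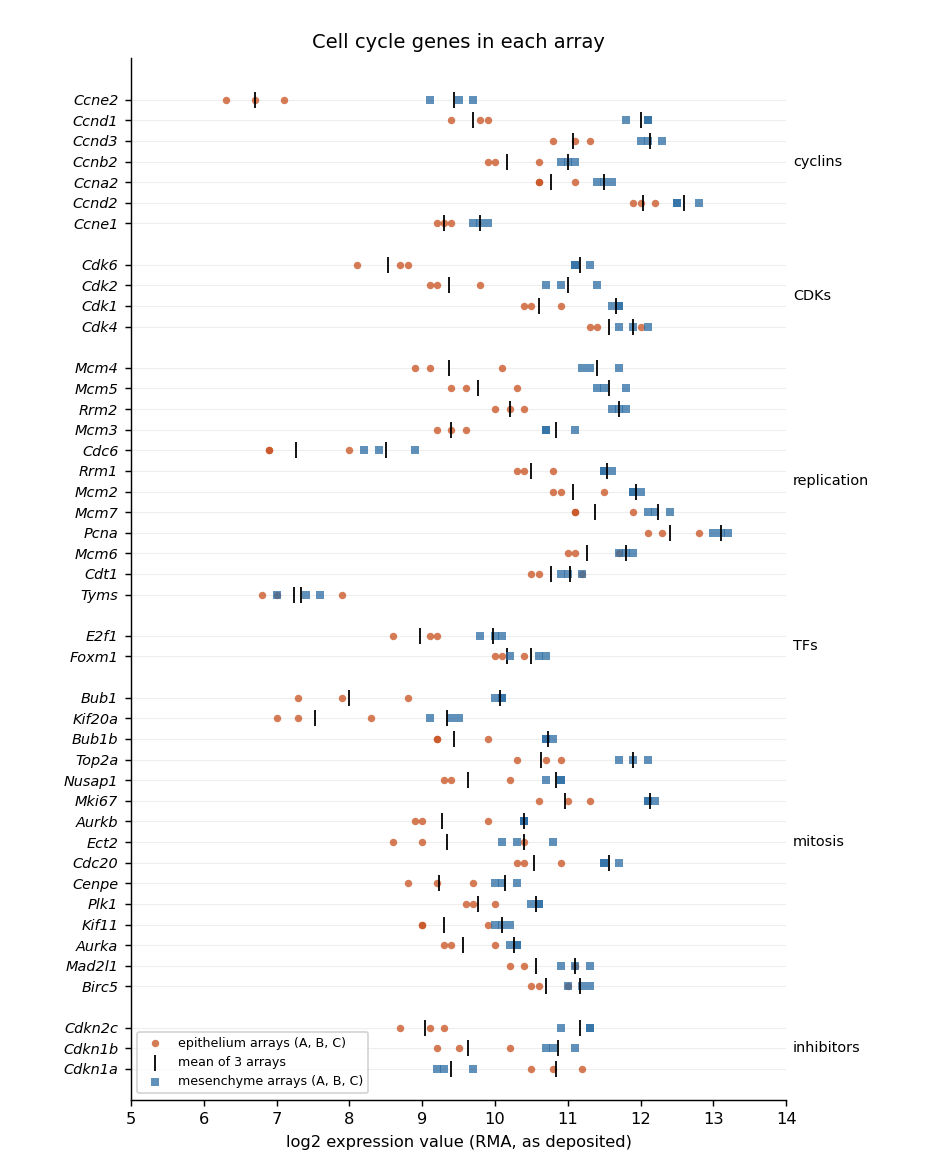
Log2 expression value of 43 cell cycle genes (brightest probe set) in each array, with epithelial arrays as circles, mesenchymal arrays as squares and the mean of 3 arrays as a bar, grouped by role. The epithelial arrays lie to the left in 34 genes without overlap, and Cdkn1a is the gene with all epithelial arrays to the right.

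How many members were called depended on how the arrays were scaled. The median over all genes shifted by 0.21 to 0.32 with cyclic loess, quantile normalization, equal medians or centring on ribosomal protein genes, and by -0.26 with centring on spike-in controls. The number of members called lower in the epithelium was 16, 16, 12, 11 and 30 under these scalings, against 12.3%, 11.9%, 11.5%, 11.2% and 21.3% of all genes. In the deposited values the members' median minus that of all genes was -0.87, and 41 of 43 members lay below the median of all genes. Equal medians and both centrings shift every gene alike and cannot change these values. Quantile normalization gave -0.99 and cyclic loess -0.92, again with 41 members below. The calls of 11 members held under all 5: Ccnd1, Ccne2, Cdk2, Cdk6, Mcm3, Mcm4, Mcm5, Rrm2, Bub1, Kif20a and Cdkn2c. The call of Cdkn1a held as well. Spike-in centring rested on mesenchyme B, whose controls averaged 9.80 against 10.56 to 10.77 in the other arrays. Without that array it gave 22 calls, against 15.9% of all genes.

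**Figure D2:**
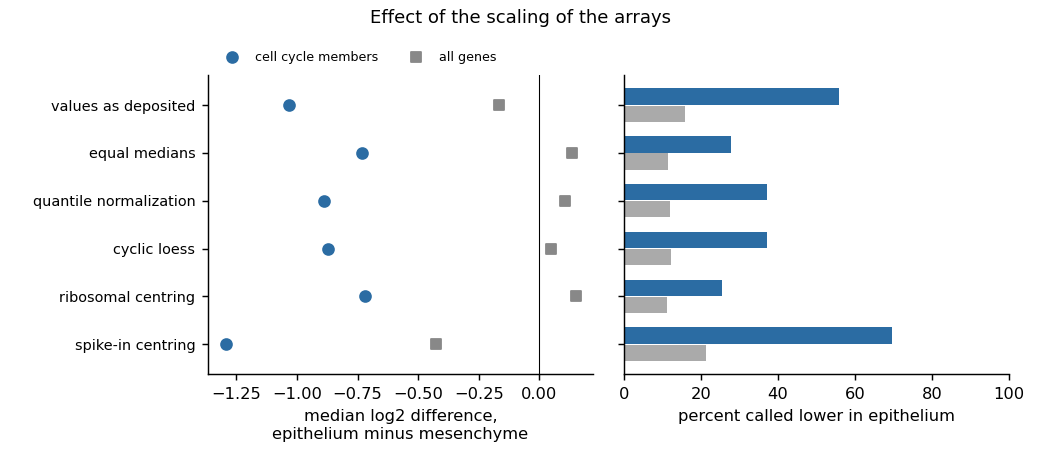
Left, median log2 difference (epithelium minus mesenchyme) over the cell cycle members (circles) and over all genes (squares) for the deposited values and 5 scalings of the arrays. Right, percent of members (blue bars) and of all genes (grey bars) called lower in the epithelium. The gap between both medians is the same by construction for equal medians and both centrings, while the share of members called runs from 25.6% to 69.8%.

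Epithelium B stood above epithelium A and C in all 43 members. Part of this was common to the whole array, since its median over all probe sets was 8.6 against 8.1 and 8.3. With each array's median subtracted, B was still the highest in 23 members, A in 8 and C in 5, with ties in the rest. The median SD of a member between epithelial arrays was 0.38 as deposited and 0.20 after equal medians, and between mesenchymal arrays it was 0.15 in both. Leaving out epithelium B raised the number of members called lower to 29, against 19.3% of all genes. Leaving out epithelium A gave 18, against 13.7% of all genes. In these fits the members' median minus that of all genes was -0.92 and -0.87.

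Promoters of all members with a RefSeq window, called or not, were searched for letters that cell cycle factors are known to bind. E2F factors bind sites with TTCGCGC or TTGGCGC, the MuvB complex binds the cell cycle homology region, CHR, read here as TTTGAA or TTTAAA, and NF-Y binds CCAAT. Windows of RefSeq (GRCm38.p6) from 250 bases before to 50 after a gene's start were searched on both strands, and TTTAAA, its own reverse complement, was counted once. An E2F match can share letters with another E2F match or with CCAAT. Windows were found for 36 members, Ccnb1 included, with 41 windows in all, since some genes have several. Ccna2, Ccnd1, Ccnd2, Ccne2, Mcm4, Foxm1, Aurkb and Kif20a had no window. The E2F letters stood in 10 of 41 windows (24.4%), against 3.89% of all 32851 windows and 5.67% of the 18123 windows of genes tested here. CHR letters stood in 19 windows (46.3%), against 27.6% and 21.7%, and CCAAT in 27 windows (65.9%), against 37.4% in either set. The median GC content was 59.0% in the members' windows, 52.7% in all windows and 58.3% in those of genes tested, and its part in these shares was not tested. By role, E2F letters were in 5 of 12 windows of replication genes and 3 of 14 of mitosis genes, and CHR letters in 3 of 12 and 11 of 14. CHR and CCAAT occurred together in 10 of 14 windows of mitosis genes, against 8.44% of the windows of genes tested. Nearby windows of 1 gene overlap, and a match of letters is no proof of binding.

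The 200 bases before the start are printed for Mcm5 of the replication helicase, for Cdk1 and Ccnb2, which form the mitotic kinase, for Top2a and Cdc20 of mitosis, and for both windows of Cdkn1a, the member that went the other way. Capitals mark E2F, CHR and CCAAT letters on either strand, and each sequence reads 5′ to 3′ along its gene.
Mcm5, chr8:75109309-75109508, plus strand: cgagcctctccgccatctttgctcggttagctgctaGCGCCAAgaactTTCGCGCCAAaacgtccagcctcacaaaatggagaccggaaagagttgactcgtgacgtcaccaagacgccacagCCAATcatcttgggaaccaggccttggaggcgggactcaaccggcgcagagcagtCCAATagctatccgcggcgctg
Cdk1, chr10:69352913-69353112, minus strand: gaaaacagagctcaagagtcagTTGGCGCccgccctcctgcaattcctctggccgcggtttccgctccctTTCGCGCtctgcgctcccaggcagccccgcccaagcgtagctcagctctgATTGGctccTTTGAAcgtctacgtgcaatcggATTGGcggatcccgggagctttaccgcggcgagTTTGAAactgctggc
Ccnb2, chr9:70421555-70421754, minus strand: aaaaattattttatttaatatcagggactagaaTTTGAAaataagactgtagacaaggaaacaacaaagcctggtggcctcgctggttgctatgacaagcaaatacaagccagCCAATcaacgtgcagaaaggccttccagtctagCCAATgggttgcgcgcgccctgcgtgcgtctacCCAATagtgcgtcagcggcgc
Top2a, chr11:99024190-99024389, minus strand: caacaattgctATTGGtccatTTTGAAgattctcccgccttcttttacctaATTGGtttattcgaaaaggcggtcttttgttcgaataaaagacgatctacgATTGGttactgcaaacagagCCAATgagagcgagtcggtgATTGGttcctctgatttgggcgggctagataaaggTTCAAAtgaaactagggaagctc
Cdc20, chr4:118437344-118437543, minus strand: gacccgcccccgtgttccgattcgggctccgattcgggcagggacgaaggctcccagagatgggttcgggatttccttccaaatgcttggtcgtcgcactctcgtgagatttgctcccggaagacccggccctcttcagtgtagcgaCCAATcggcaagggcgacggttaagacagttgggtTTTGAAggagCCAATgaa
Cdkn1a window 1, chr17:29090779-29090978, plus strand: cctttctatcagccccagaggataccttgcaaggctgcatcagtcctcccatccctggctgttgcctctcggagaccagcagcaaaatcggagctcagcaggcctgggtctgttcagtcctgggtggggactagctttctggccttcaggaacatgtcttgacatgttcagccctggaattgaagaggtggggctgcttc
Cdkn1a window 2, chr17:29093569-29093768, plus strand: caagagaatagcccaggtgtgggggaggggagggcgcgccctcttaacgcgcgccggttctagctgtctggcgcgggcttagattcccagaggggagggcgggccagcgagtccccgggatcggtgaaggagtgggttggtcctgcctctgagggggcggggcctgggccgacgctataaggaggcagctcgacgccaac

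In Mcm5 the E2F letters begin 164, 152 and 149 bases before the start. Cdk1 holds E2F letters 178 and 130 bases, and CHR letters 71 and 15 bases, before its start. Ccnb2 has CCAAT 87, 54 and 21 bases before the start, and Top2a has 6 CCAAT matches in its whole window. Cdc20 has CHR letters 18 bases before the start, between CCAAT at 53 and at 8 bases. Neither window of Cdkn1a holds any of these letters. This is not particular to Cdkn1a, since the windows of Cdk4, Cdk6, Cdc6, Tyms, E2f1, Mad2l1 and Nusap1 hold none either. Of these, Cdk6, Cdc6, E2f1 and Nusap1 were called lower in the epithelium.

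Of the 7 measured cyclins 3 (42.9%) were called lower in the epithelium, against 15.9% of all genes: Ccne2, Ccnd1 and Ccnd3. Ccne2, an E cyclin that partners Cdk2 at the entry into S phase, read 6.7, 7.1 and 6.3 in epithelium A, B and C, against 9.7, 9.1 and 9.5 in mesenchyme A, B and C. Its difference was -2.73 ± 0.23 (adjusted p = 4.13e-25, limma with Benjamini-Hochberg adjustment), the lowest of all members. Its epithelial values lie among the dim signals of these arrays, where folds are compressed. Ccnd1, the D cyclin induced by growth signals, read 9.4, 9.9 and 9.8 against 12.1, 12.1 and 11.8, a difference of -2.30 ± 0.23 (adjusted p = 2.84e-19, limma). Its other probe sets gave -1.83 and -1.03, so that all 3 probe sets were called. Ccnd3, another D cyclin, had an epithelial level of 11.07 ± 0.25 and a mesenchymal level of 12.13 ± 0.15 (-1.07 ± 0.23, adjusted p = 2.18e-05, limma). This call ended without epithelium A (-0.93) or mesenchyme B (-0.98).

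The other 4 measured cyclins were not called, and 3 of them passed on the adjusted p alone. Ccnd2, a D cyclin, read 11.9, 12.2 and 12.0 against 12.8, 12.5 and 12.5, and differed by -0.57 ± 0.23 (adjusted p = 0.0333, limma). Of its 7 probe sets, 2 were called, at -1.07 and -1.40, and the other 5 lay between -0.87 and -0.23. Ccna2, the cyclin of S phase and early mitosis, differed by -0.73 ± 0.23 by its brightest probe set and by -1.10, a call, by its other. Ccnb2, a mitotic cyclin, was at 10.17 ± 0.38 and 11.00 ± 0.10 (-0.83 ± 0.23), which became a call without epithelium B (-1.05). Ccne1 read 9.3, 9.4 and 9.2 against 9.8, 9.9 and 9.7. The arrays did not overlap, but the difference of -0.50 ± 0.23 did not pass (adjusted p = 0.0648, limma). The E cyclins thus parted, and the 95% intervals of the differences of Ccne2 and Ccne1 (-3.19 to -2.28 and -0.95 to -0.05) did not meet.

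Of the 4 kinases 3 were called lower in the epithelium, against 15.9% of all genes. Cdk6 and Cdk4, which both act with D cyclins, lay at opposite ends. Cdk6 read 8.1, 8.8 and 8.7 in the epithelial arrays, against 11.3, 11.1 and 11.1, a difference of -2.63 ± 0.23 (adjusted p = 7.45e-24, limma), which leaves 16.1% of the mesenchymal level. Another probe set gave -2.47, and the last, dimmer one -0.27. Cdk4 read 11.3, 12.0 and 11.4 against 12.1, 11.9 and 11.7, so the tissues overlapped, and the difference of -0.33 ± 0.23 did not pass (adjusted p = 0.245, limma). Its other probe sets gave -0.23 and -0.07. The 95% interval of Cdk4, -0.79 to 0.12, lies above that of Cdk6, -3.08 to -2.18. Cdk2, the kinase of S phase entry, was at 9.37 ± 0.38 and 11.00 ± 0.36 (-1.63 ± 0.23, adjusted p = 9.41e-11, limma), and its other probe set, near the bottom of the range at a mean of 5.23, gave -0.13. Cdk1, the kinase of mitosis, read 10.5, 10.9 and 10.4 against 11.6, 11.7 and 11.7 (-1.07 ± 0.23, adjusted p = 2.16e-05, limma), a call that ended without epithelium C (-0.97).

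**Figure D3:**
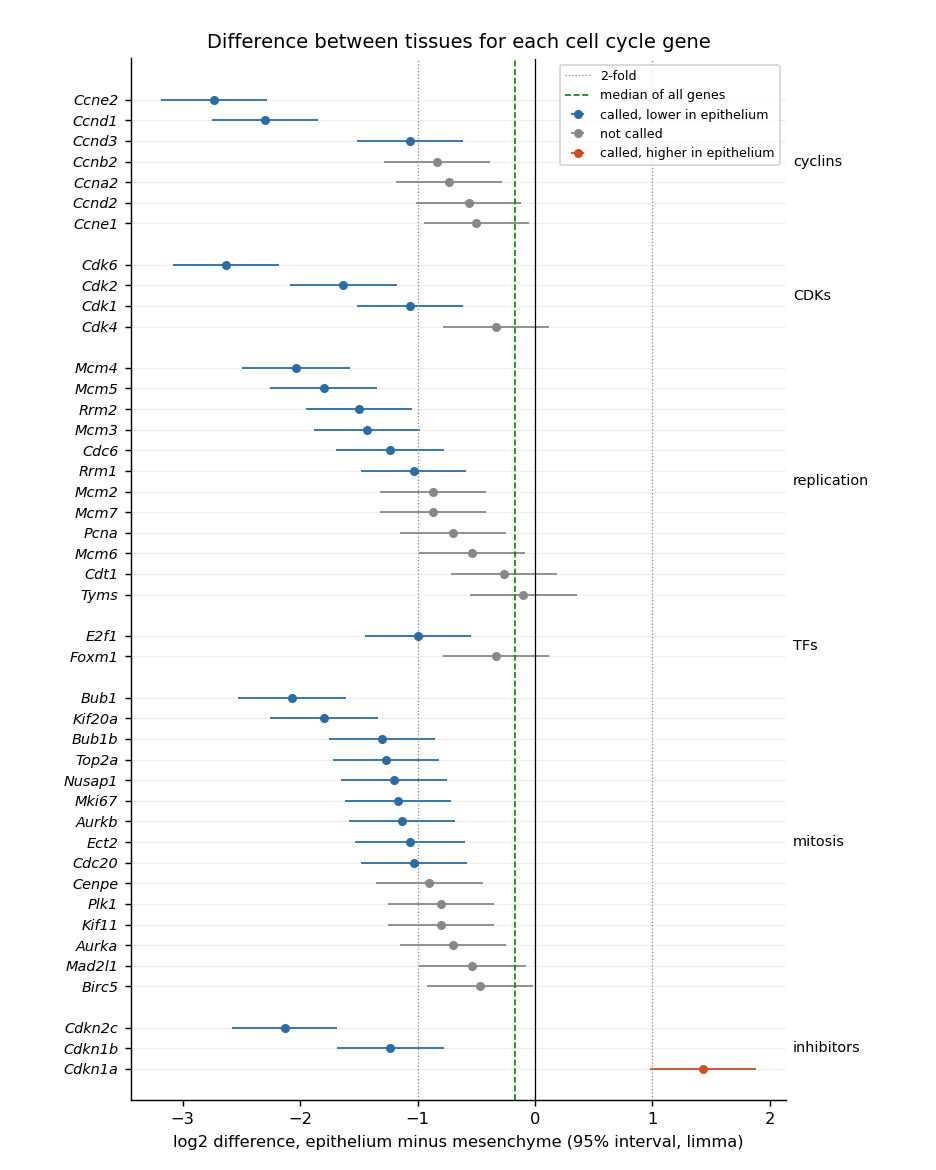
Log2 difference (epithelium minus mesenchyme) of each cell cycle gene with its 95% interval from limma, grouped by role and ordered within it. The solid line marks no difference, dotted lines 2-fold, and the dashed line the median of all genes (-0.17). Cdkn1a (1.43) is the single gene to the right of the zero line.

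Of the 12 replication genes, 6 were called lower in the epithelium, against 15.9% of all genes, and none higher. On the adjusted p alone 10 were lower, against 29.5% of all genes. The Mcm proteins form the helicase that opens DNA at origins. Mcm4 read 8.9, 10.1 and 9.1 against 11.7, 11.2 and 11.3 (-2.03 ± 0.23, adjusted p = 2.82e-15, limma). Mcm5 read 9.4, 10.3 and 9.6 against 11.8, 11.4 and 11.5 (-1.80 ± 0.23), and Mcm3 read 9.2, 9.6 and 9.4 against 11.1, 10.7 and 10.7 (-1.43 ± 0.23). In these 3 genes every epithelial array was lower than every mesenchymal array, as in 30.5% of all genes. All 5 probe sets of Mcm3 were called, from -1.43 to -1.03. The next probe set of Mcm4 gave -1.03, and those of Mcm5 gave -1.23 and, for a dim one, 0.17. Mcm2 (-0.87 ± 0.23), Mcm7 (-0.87 ± 0.23) and Mcm6 (-0.53 ± 0.23) did not reach 2-fold although they belong to the same ring. Mcm2 and Mcm7 were called without epithelium B (-1.08 and -1.13), and another probe set of Mcm7 was called at -1.10.

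The ribonucleotide reductase subunits, which make the building blocks of DNA, were both called. Rrm2, the subunit made in S phase, read 10.0, 10.4 and 10.2 against 11.8, 11.6 and 11.7 (-1.50 ± 0.23, adjusted p = 1.76e-09, limma), and its other probe sets gave -1.97 and -1.67. Rrm1 differed by -1.03 ± 0.23, a call that ended without epithelium A (-0.98) or epithelium C (-0.93). Cdc6, which loads the helicase, read 6.9, 8.0 and 6.9 against 8.9, 8.2 and 8.4 (-1.23 ± 0.23, adjusted p = 1.38e-06, limma), with dim values in the epithelium. Pcna, the sliding clamp of the polymerases, was at 12.40 ± 0.36 and 13.10 ± 0.10 (-0.70 ± 0.23, adjusted p = 0.00717, limma). Cdt1, the partner of Cdc6, overlapped between tissues (-0.27 ± 0.23, adjusted p = 0.366, limma), with a 95% interval from -0.72 to 0.18. Tyms, thymidylate synthase, differed by -0.10 ± 0.23 (adjusted p = 0.755, limma), and all 4 of its probe sets were dim, with means of 6.25 to 7.28. The signs of Cdt1 and Tyms turned under some scalings.

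The transcription factors E2f1 and Foxm1 depended on the probe set. E2f1, which activates replication genes, was at 8.97 ± 0.32 and 9.97 ± 0.15, a difference of -1.0 ± 0.23 that just reached 2-fold (adjusted p = 7.59e-05, limma). The call ended without epithelium A (-0.82), mesenchyme B (-0.93) or mesenchyme C (-0.98). Another probe set was called at -1.07, and the last, dimmer one gave 0.43. Foxm1, which activates mitosis genes, was not called by its brightest probe set (-0.33 ± 0.23, adjusted p = 0.245, limma). A less bright probe set read 7.8, 8.4 and 8.1 against 10.0, 9.9 and 9.7 (-1.77), a call over probe sets. Its other probe sets gave -0.53 and, near the bottom of the range, -0.17.

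Of the 15 mitosis genes, 9 (60.0%) were called lower in the epithelium, against 15.9% of all genes. On the adjusted p alone 14 (93.3%) passed, against 29.5% of all genes, and the median difference was -1.07. Bub1, a kinase of the spindle checkpoint, read 7.9, 8.8 and 7.3 against 10.1, 10.1 and 10.0 (-2.07 ± 0.23, adjusted p = 1.38e-15, limma). Kif20a, a motor needed for the last step of cell division, read 7.3, 8.3 and 7.0 against 9.5, 9.1 and 9.4 (-1.80 ± 0.23, adjusted p = 1.96e-12, limma). Of the mitosis genes, these were the 2 whose calls held under all 5 scalings. Bub1b, another checkpoint kinase, read 9.2, 9.9 and 9.2 against 10.8, 10.7 and 10.7 (-1.30 ± 0.23). Top2a, which untangles chromosomes, read 10.3, 10.9 and 10.7 against 12.1, 11.7 and 11.9 (-1.27 ± 0.23). Mki67, the usual marker of cycling cells, read 10.6, 11.3 and 11.0 against 12.2, 12.1 and 12.1 (-1.17 ± 0.23, adjusted p = 3.32e-06, limma). In each of these 5 genes all epithelial arrays lay below all mesenchymal ones, as in 30.5% of all genes. For Mki67 the epithelial level was 44.5% of the mesenchymal one. The call of Mki67 ended without epithelium A (-0.98). Dim probe sets gave -0.83 for Bub1, 0.23 for Bub1b and 0.07 for Top2a and were not called. Further probe sets of Bub1b (-1.10) and Top2a (-1.17) were called.

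Nusap1, a spindle protein, differed by -1.20 ± 0.23 and Aurkb, the kinase of the chromosomal passenger complex, by -1.13 ± 0.23. Cdc20, the activator of the anaphase-promoting complex, read 10.4, 10.9 and 10.3 against 11.7, 11.5 and 11.5 (-1.03 ± 0.23, adjusted p = 4.14e-05, limma). Ect2, which sets up the cleavage furrow, read 9.0, 10.4 and 8.6 against 10.8, 10.1 and 10.3. It was the called member whose tissues overlapped (-1.07 ± 0.24), with an epithelial SD of 0.95. The calls of Aurkb (-0.95 without epithelium C), Cdc20 (-0.97 with epithelium A left out, -0.92 with C and -0.97 with mesenchyme A) and Ect2 (-0.90, -0.70 and -0.87 with the same arrays left out) each ended when 1 array was left out. The centromere motor Cenpe (-0.90 ± 0.23), the spindle motor Kif11 (-0.80 ± 0.23), the mitotic kinases Plk1 (-0.80 ± 0.23) and Aurka (-0.70 ± 0.23) and the checkpoint protein Mad2l1 (-0.53 ± 0.23) passed the adjusted p but not 2-fold. Without epithelium B, Cenpe (-1.13) and Kif11 (-1.10) were called. A dim probe set of Aurka gave 0.40 and was not called. Birc5, survivin of the same passenger complex as Aurkb, read 10.5, 11.0 and 10.6 against 11.3, 11.0 and 11.2 and did not pass (-0.47 ± 0.23, adjusted p = 0.0878, limma).

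The 3 inhibitors were all called, 2 lower in the epithelium, against 15.9% of all genes, and 1 higher, against 8.2%. Cdkn1a (p21), an inhibitor of Cdk2 that is raised in cells leaving the cycle, read 10.5, 11.2 and 10.8 in epithelium A, B and C, against 9.3, 9.7 and 9.2. All epithelial arrays were higher, by 1.43 ± 0.23 (adjusted p = 1.10e-08, limma), or 2.70-fold. Its second probe set read 8.7, 9.3 and 9.2 against 8.9, 8.8 and 9.0 and gave 0.17, which was not called, and in the mean of both the difference was 0.80. Without any 1 array the difference of the brighter probe set stayed between 1.25 and 1.60. Cdkn2c (p18), an Ink4 inhibitor of Cdk4 and Cdk6, read 9.1, 9.3 and 8.7 against 11.3, 11.3 and 10.9 (-2.13 ± 0.23, adjusted p = 5.64e-17, limma). Cdkn1b (p27), a relative of Cdkn1a, read 9.2, 10.2 and 9.5 against 11.1, 10.7 and 10.8 (-1.23 ± 0.23, adjusted p = 1.05e-06, limma). The dimmer probe set of Cdkn1b gave -0.70 and was not called. The call of Cdkn1b ended in the mean of both (-0.97), with equal medians (-0.93) and with ribosomal centring (-0.92). Cdkn2c and Cdkn1b were lower in the epithelium with no overlap of arrays, as were most of the cyclins and kinases and 30.5% of all genes.

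Among the brighter probe sets nearly all differences were negative. Of the 102 probe sets of the members, 49 were called lower in the epithelium over probe sets, against 15.5% of all probe sets, and 1 was called higher. Of the 80 probe sets at or above the 40th percentile of mean level over all probe sets (8.07), 45 were called lower and 2 had a positive difference, both of Cdkn1a. Of the 22 dimmer ones, 4 were called and 7 were positive, and their median difference was -0.20 against -1.03 in the brighter ones. Ccna2, Ccnd2, Mcm7, Foxm1 and Kif11 were called by another probe set than their brightest, so that 29 members had at least 1 probe set called lower. Such a count can only rise with the number of probe sets, and 31 members have several. Its share over all genes was not computed. In the mean of all its probe sets a gene can lose its call. There Cdk2 was at -0.88, Mcm5 at -0.96, Top2a at -0.79, Bub1b at -0.72 and E2f1 at -0.54. Ccnd3 (-0.91), Rrm1 (-0.98), Cdc20 (-0.91) and Cdkn1b (-0.97) lost their calls as well. In this mean 15 members were called lower, against 14.9% of all genes, and none higher.

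**Figure D4:**
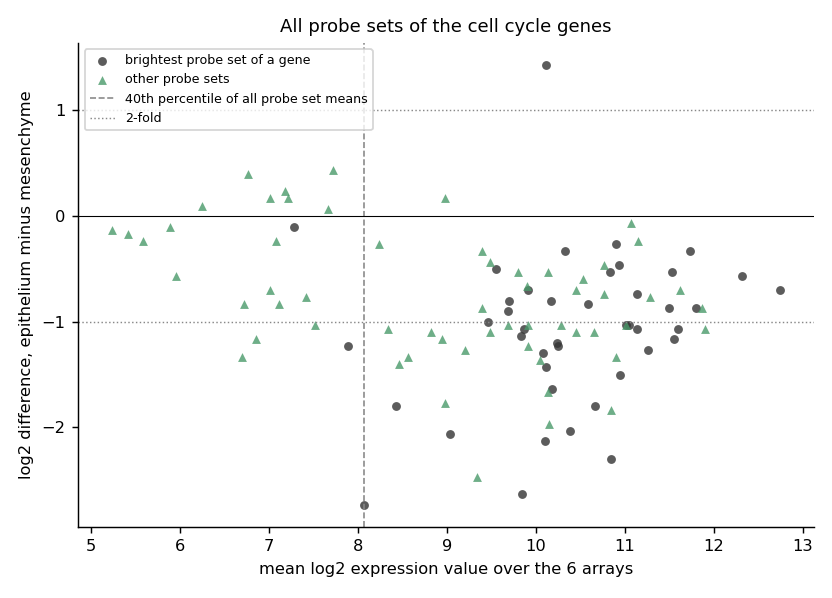
Log2 difference (epithelium minus mesenchyme) against the mean log2 value over 6 arrays for all 102 probe sets of the cell cycle genes, with the brightest probe set of each gene as circles and the others as triangles. At or right of the dashed line, the 40th percentile of all probe sets (8.07), 2 of 80 are above zero, and to its left 7 of 22 are.

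Other genes of DNA replication and mitosis showed the same direction where they were called. Of 46 other replication genes, 10 (21.7%) were called lower in the epithelium and none higher, with a median of -0.70, a share not far above the 15.9% of all genes. They included Pola1, the catalytic subunit of the priming polymerase (-1.63 ± 0.23), Tipin, a fork protection factor (-1.63 ± 0.23), Dut, which removes dUTP (-1.50 ± 0.23), and Rpa1, which coats single-stranded DNA (-1.43 ± 0.23). The call of Pola1 ended in the mean of its probe sets (-0.78) and that of Dut in probe sets without a suffix (-0.80). Of 59 other mitosis genes, 26 (44.1%) were called lower and none higher, with a median of -0.90. They included Anln, the scaffold of the cleavage furrow, at 8.4, 9.3 and 8.7 against 11.5, 11.3 and 11.3 (-2.57 ± 0.23), the kinetochore protein Nuf2 (-2.13 ± 0.23), Cks1b, a subunit of cyclin-dependent kinases (-1.90 ± 0.23), and Ckap2, a spindle protein (-1.80 ± 0.23), with the same difference as the centromere protein Cenpn. Under the 5 scalings the counts of these lists ran from 6 to 18 and from 12 to 38.

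Control genes and inhibitors outside the set went both ways. Of 30 other control genes, 3 (10.0%) were called lower in the epithelium and 2 (6.67%) higher, against 15.9% and 8.2% of all genes. Both shares were below those of all genes, and the median of -0.27 was near that of all genes. E2f8, a repressor among the E2F factors, read 11.2, 11.9 and 11.6 against 10.2, 10.0 and 9.8 (1.57 ± 0.23), whereas its close relative E2f7 was lower (-1.33 ± 0.23). Cdc25a, a phosphatase that activates Cdk2, read 10.9, 11.7 and 11.3 against 9.9, 9.7 and 10.0 (1.43 ± 0.23), and Cdc25b, which acts on Cdk1, read 8.2, 9.0 and 7.9 against 10.0, 10.0 and 10.2 (-1.70 ± 0.23). The call of Cdc25a ended in the mean of its probe sets (0.88). Lin9, a MuvB subunit with dim signal, was lower (-1.63 ± 0.24). Of 13 other inhibitors and arrest genes, 3 (23.1%) were called in each direction, against 15.9% of all genes lower and 8.2% higher. Cdkn2b (p15) was at 10.83 ± 0.35 and 8.17 ± 0.32 (2.67 ± 0.23), the antiproliferative gene Tob1 at 12.00 ± 0.44 and 9.80 ± 0.20 (2.20 ± 0.23) and Cdkn1c (p57) at 13.57 ± 0.31 and 12.50 ± 0.20 (1.07 ± 0.23). The call of Cdkn1c ended with quantile normalization (0.98), with spike-in centring (0.81), without epithelium B (0.90) and without mesenchyme C (0.97). Gas1, a surface protein of arrested fibroblasts (-3.60 ± 0.23), Gadd45g (-1.93 ± 0.23) and Cdkn2d, another Ink4 inhibitor (-1.63 ± 0.23), were lower in the epithelium. Of the 4 Ink4 genes, Cdkn2b was thus higher in the epithelium and Cdkn2c and Cdkn2d lower, as they also were under each of the 5 scalings, and Cdkn2a, which was dim in both tissues, was not called (0.13 ± 0.23).

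**Figure D5:**
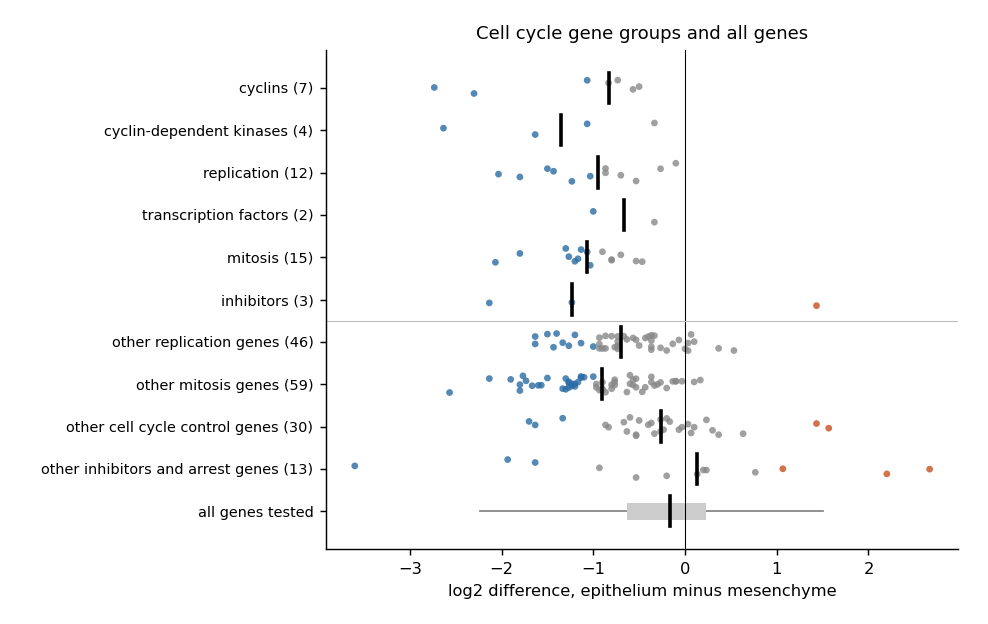
Log2 difference (epithelium minus mesenchyme) of each gene in the 6 groups of members (above the line) and 4 lists of other cell cycle genes, with a bar at each median and the number of genes in parentheses. Blue genes are called lower and orange genes higher in the epithelium, and grey ones are not called. For all genes, the box spans the 25th to 75th percentile (-0.63 to 0.23) and the line the 5th to 95th (-2.23 to 1.50).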

How the data were processed

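RNA of 3 epithelial and 3 mesenchymal pools was hybridized to Affymetrix arrays, 1 pool per array. Per the submitters' processing notes RMA was used, and the authors deposited log2 expression values, which are rounded to 0.1. The step between arrays is not given in the sources used here, and there are no detection calls, and folds of dim genes are compressed. Precision is limited by having 3 arrays per tissue.

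Of 45101 probe sets, 64 controls were set aside. The platform annotation gave 1 symbol for 34945, several for 932 and none for 9160. Symbols were updated by RefSeq (GRCm38.p6). Genes were tested with limma 3.58.1 in R 4.3.3 (lmFit, eBayes) on the deposited values, without covariates, and adjusted over 18161 genes, and all 45037 probe sets were fitted separately. With 263 prior against 4 residual degrees of freedom, nearly all of a standard error (0.23 to 0.24 for the members) comes from the spread shared by all genes. P-values thus set a difference mainly against the spread between these pools that all genes share, and little against the gene's own. They also depend on the fit: Ccne2 had an adjusted p of 4.13e-25 over genes and 6.45e-12 over probe sets (limma). The fit was tested on simulated data. All measured members are named, and of each other list up to 4 called genes per direction with the largest difference. Cenpn, Cdkn2a and Csf1r were named after their values were seen. Members and lists were chosen with earlier results of these data known. Alternatives covered scaling, probe set choice, a filter on dim genes (40th percentile), the minimum fold, left-out arrays and the letters A to C as a block.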

Additional observations from a re-analysis of the deposited data

How the results depend on the processing

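Of the members 24 were called lower in the epithelium, against 15.9% of all genes. The count fell to 12 with equal medians (11.5% of all genes) and 11 with ribosomal centring (11.2%). It was 15 when the probe sets of each gene were averaged (14.9%), where the count called higher was 0 (Cdkn1a, 0.80). With the other alternatives the count called lower was 16 to 30, against 11.9% to 21.3% of all genes. Without the 2-fold minimum it was 36, against 29.5%. Leaving out each array gave 18 to 29, against 13.7% to 19.3% of all genes, and kept Cdkn1a. Of the 24, 16 were called in every such fit. Ccnd3, Cdk1, Rrm1, E2f1, Cdc20 and Ect2 lay within 0.1 of 2-fold and lost their calls in some of these fits. Why the scalings differ was not tested. Of all called genes, 66.0% were lower in the epithelium, and 48.8% to 77.5% over the scalings. Tyms turned positive with equal medians (0.20), quantile normalization (0.23), cyclic loess (0.098) and ribosomal centring (0.22), and ranged from -0.43 to 0.12 with an array left out, above 0 in 3 such fits (0.017, 0.12 and 0.033). Cdt1 did so with equal medians (0.033) and ribosomal centring (0.048). No called member changed direction in any alternative run. The labels do not say whether the letters A, B and C pair the samples. Same-lettered arrays correlated at -0.27, -0.11 and 0.13 in their deviations from the tissue means, and arrays of unlike letters at -0.28 to 0.37. Deviations from a mean of 3 arrays sum to zero and hold shifts of whole arrays, so these values cannot decide whether embryos were shared. With the letters as a replicate block 24 members were called lower, against 15.9% of all genes, and 1 higher. Spike-in centring without mesenchyme B was chosen after seeing the data.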

Other observations

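Across all tested genes with a RefSeq promoter window, genes with and without the letters searched in the members' promoters had close medians. The 975 genes with E2F letters had a median difference of -0.23, against -0.17 in the 13486 without, and 16.0% against 15.4% were called lower in the epithelium. Of the 1439 genes with both CHR and CCAAT letters, 16.1% were called lower, against 15.4% of the 13022 others, with medians of -0.13 and -0.17. No test was made of these values.

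Markers of the dividing cells between the villi went both ways. Of 9 such genes, 2 (22.2%, against 8.2% of all genes) were called higher in the epithelium, Olfm4 (5.33 ± 0.23) and Rnf43 (1.47 ± 0.23). Another 2 (22.2%, against 15.9% of all genes) were called higher in the mesenchyme, Cd44 (-3.47 ± 0.23) and Smoc2 (-2.47 ± 0.23). These 4 were named after their values were seen. Over all 9 the median difference was 0.40, and 3 had a negative difference. On the adjusted p alone 4 were higher in the epithelium, as were 2730 of all 18161 genes, and 2 were lower, against 29.5%. The summed signal of the list was 13.0 to 13.6 (log2) in the epithelial arrays and 12.8 to 12.9 in the mesenchymal ones. The largest part came from Olfm4 in the epithelium (12.47) and from Smoc2 (11.33) and Cd44 (11.00) in the mesenchyme. The 2 sums thus rest on different genes and do not compare the dividing cells.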
